A study of Homo sapiens with 50 samples.

Results

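The 10 genes described here are established targets of the transcription factor NRF2: GCLC, GCLM, GSR, TXNRD1, SRXN1, NQO1, AKR1B10, ALDH3A1, PGD and HMOX1. They are a list of names, with no threshold on a measured value, out of 18227 genes measured, and all 10 were measured. A gene with several probe sets is represented by the brightest one, judged by its mean over all 50 arrays. The cells were A549, a human lung adenocarcinoma line that is known to carry a loss-of-function variant of KEAP1. The arrays do not measure that variant.

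NRF2, encoded by NFE2L2, switches on genes for glutathione and thioredoxin metabolism, detoxification and NADPH supply. KEAP1 normally holds NRF2 low by presenting it for ubiquitination and breakdown, and oxidants or electrophiles interrupt this. In cells with damaged KEAP1 the pathway is already active at rest, so many of its targets, though not necessarily each one, are known for high basal levels in A549.

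RNA was profiled on Affymetrix HG-U219 arrays, in 17 groups of 3 arrays each, except 1 group of 2. One group was taken from cells in RPMI, a full culture medium, before any change. All other cells were moved to BME with non-essential amino acids, either with or without serine, and 24 h later received 1 uM of compound 16 or DMSO, the solvent. Compound 16 is, by the title of the study, an activator of the glycolytic enzyme PKM. These cells were harvested at 0, 1.5, 6 and 24 h after the addition, which gave 16 groups of medium, agent and time. The group in DMSO with serine at 1.5 h had 2 arrays. All groups were of this 1 cell line.

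Values are log2 signals, so a difference of 1 is a doubling, and differences are given with the standard error (SE) of 1 limma fit of all 17 group means. A difference was called where limma's p, adjusted by Benjamini-Hochberg over all 18227 genes, was under 0.05. In bulk RNA, fewer cells that express a gene and less of its RNA per cell cannot be told apart. Levels of different genes come from different probes and are not compared with each other. The median signal of an array lay between 5.40 and 5.54, and no pair of arrays was identical. Of 6 epithelial markers, KRT8 had group means of 13.33 to 13.71, KRT18 of 14.27 to 14.42, KRT7 of 12.70 to 13.24 and KRT19 of 11.84 to 12.52. EPCAM had group means of 9.32 to 9.88 and CDH1 of 9.22 to 9.81. The 5 fibroblast and 4 endothelial markers had group means of 3.83 to 5.18. Among leukocyte markers, PTPRC stayed between 3.98 and 4.21, whereas CD14 ranged from 5.25 to 6.82 and LYZ from 4.67 to 7.49. The table states no detection floor, so the lowest signals cannot be called absent. CDKN2A, which is deleted in A549, had group means of 4.99 to 5.78.

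Over the 17 groups, 9 of the 10 genes varied more than their arrays did within groups, by limma's moderated F test, beside 55.3% of all genes. AKR1B10 was the exception, with an adjusted p of 0.088. HMOX1, heme oxygenase 1, which breaks down heme, had the widest range of the 10. Its group means ran from 9.72 in DMSO without serine at 24 h to 10.89 before the change of medium, a 2.24-fold span, and 4.26% of all genes had a wider range. GCLC, the catalytic subunit of glutamate-cysteine ligase, spanned 0.76, or 1.70-fold. Its lowest mean was 10.87, before the change of medium, and its highest was 11.64, under the compound without serine at 6 h. SRXN1, sulfiredoxin, which repairs over-oxidised peroxiredoxins, spanned 0.53, from 12.26 to 12.79.

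The other genes varied less. PGD, a dehydrogenase of the pentose phosphate pathway that yields NADPH, spanned 0.46, from 12.35 before the change of medium to 12.81 in DMSO with serine at 1.5 h. GSR, glutathione reductase, spanned 0.44, and GCLM, the modifier subunit of glutamate-cysteine ligase, spanned 0.40. ALDH3A1, an aldehyde dehydrogenase, spanned 0.35, and NQO1, a quinone reductase, spanned 0.32. TXNRD1, cytosolic thioredoxin reductase, spanned 0.26 and AKR1B10, an aldo-keto reductase, 0.11, between 14.29 and 14.40. The median range over all genes was 0.48, so 3 of the 10 genes lay above it and 7 below. Such a range also holds the scatter of the arrays, which differs between genes. Within groups, the arrays of the 10 had an SD of 0.02 (AKR1B10) to 0.08 (GCLC and GCLM). The median SE of a comparison over all genes was 0.122 to 0.183. A range below 0.48 therefore does not show that a gene changed less than most. The table's highest signal was 14.6, and how far the brightest probe sets could still rise was not tested.

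**Figure D1:**
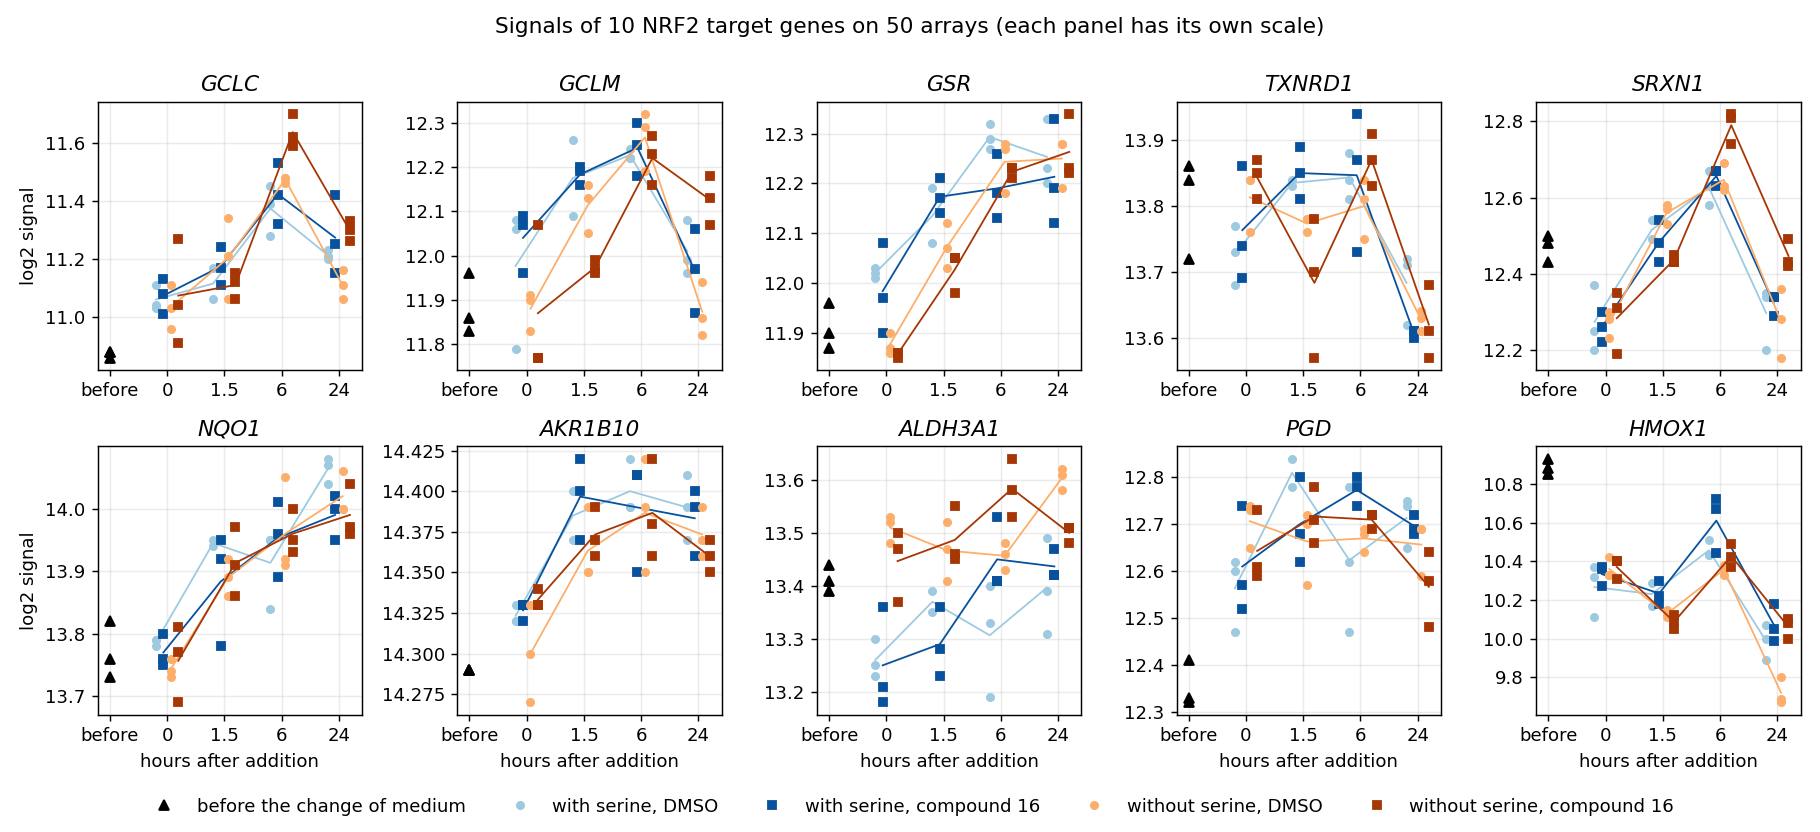
Log2 signal (vertical, its own scale in each panel) of each of the 10 genes on every array, before the change of medium and by hours after the addition (horizontal, evenly spaced times). Points are arrays, triangles are the cells before the change, circles DMSO and squares compound 16, and lines join group means. HMOX1 is highest before the change of medium (10.85 to 10.93) and lowest in DMSO without serine at 24 h (9.67 to 9.80), while AKR1B10 stays between 14.27 and 14.42.

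The first comparison asked how the genes changed over the 24 h in the new medium, by setting DMSO at 0 h against cells before the change. With serine, PGD rose, and HMOX1, SRXN1 and ALDH3A1 fell. Among all genes 12.3% rose and 9.48% fell in this comparison. Without serine, PGD again rose and HMOX1 and SRXN1 fell, where 16% of all genes rose and 12.6% fell. With the fit limited to the 6 arrays of the comparison with serine, 1 of the 10 was called. Both comparisons use the same 3 arrays from before the change, so they are not independent of each other. The median difference of the 10 genes was 0.02 with serine and 0.00 without, beside 0.01 for all genes in each.

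HMOX1 read 10.85, 10.88 and 10.93 in the arrays before the change. It read 10.11, 10.32 and 10.37 with serine at 0 h, and 10.33, 10.33 and 10.42 without. All 6 later arrays lay below all 3 earlier ones. The difference was -0.62 ± 0.07 (SE) with serine, with a limma adjusted p of 2.1e-09, and -0.53 ± 0.07 without, with an adjusted p of 4.54e-08. SRXN1 fell by 0.20 ± 0.05 in both media, from 12.43, 12.48 and 12.50 to 12.20, 12.25 and 12.37 with serine and to 12.23, 12.28 and 12.30 without.

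PGD read 12.32, 12.33 and 12.41 before the change, 12.47, 12.60 and 12.62 with serine and 12.65, 12.73 and 12.74 without. The rise was 0.21 ± 0.07 with serine (limma adjusted p = 0.016) and 0.35 ± 0.07 without. A further probe set for PGD gave 0.35 ± 0.06 and 0.39 ± 0.06. With serine, the PGD call was lost without array 13 or 14 of the 0 h group or array 2 or 3 of the earlier group. ALDH3A1 was lower by 0.15 ± 0.06 with serine (adjusted p = 0.0414), a call that 5 of the 6 arrays each carried.

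The arrays from before the change form a numbering block of their own in the titles, so the change of medium and this block cannot be told apart. The same arrays had the largest mean gap between the 3′ and 5′ control probe sets of ACTB, a sign of RNA or labelling quality. It was 1.37 beside 1.22 and 1.14 in DMSO at 0 h with and without serine. Single arrays ran from 1.30 to 1.47 before the change and overlapped those with serine (1.08 to 1.38). They did not overlap those without serine, which ran from 1.04 to 1.21. The gap of the other control, GAPDH, was -0.16 beside -0.16 and -0.17. LYZ was higher by 0.77 ± 0.23 with serine and by 0.71 ± 0.23 without. KRT19 was higher by 0.57 ± 0.06 and 0.68 ± 0.06, CDH1 by 0.23 ± 0.07 with serine, and KRT7 was lower by 0.14 ± 0.05 without. None of the fibroblast and endothelial markers was called. The part of these shifts in the results was not tested.

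The second comparison followed the cells in DMSO from 0 to 6 h. In both media GCLC, GCLM, SRXN1 and GSR rose. With serine, GCLC, GCLM, SRXN1, HMOX1 and GSR rose and none of the 10 fell, where 4.67% of all genes rose and 9.62% fell. With arrays centred on their medians 8 of the 10 rose, and with the fit limited to the 6 arrays none was called. Without serine, NQO1, GCLC, GCLM, SRXN1 and GSR rose and none fell, where 8.16% of all genes rose and 14.3% fell. The median difference of the 10 was 0.16 with serine and 0.15 without, beside -0.02 for all genes in each. When arrays were centred on their medians, the calls over all genes turned from 852 higher and 1754 lower to 1507 and 1098 with serine, and from 1487 and 2599 to 2075 and 1737 without.

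GCLC and GCLM form the enzyme that catalyses the rate-limiting step of glutathione synthesis. GCLC read 11.03, 11.04 and 11.11 at 0 h and 11.28, 11.39 and 11.45 at 6 h with serine, a rise of 0.31 ± 0.07 (limma adjusted p = 0.00244). Without serine it read 10.96, 11.03 and 11.11 at 0 h and 11.46, 11.48 and 11.48 at 6 h, a rise of 0.44 ± 0.07 (adjusted p = 2.39e-05). The arrays of 6 h lay above those of 0 h in both media.

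GCLM without serine read 11.83, 11.90 and 11.91 at 0 h and 12.19, 12.29 and 12.32 at 6 h, a rise of 0.39 ± 0.07 (adjusted p = 9.74e-05). With serine it read 11.79, 12.06 and 12.08 at 0 h and 12.22, 12.22 and 12.24 at 6 h, a rise of 0.25 ± 0.07 (adjusted p = 0.0128). One 0 h array stood below the rest there, and without it, array 15, the difference was 0.16 with an adjusted p of 0.179.

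SRXN1 read 12.20, 12.25 and 12.37 at 0 h and 12.58, 12.63 and 12.67 at 6 h with serine, a rise of 0.35 ± 0.05 (adjusted p = 6.37e-06). Without serine it read 12.23, 12.28 and 12.30 and then 12.62, 12.63 and 12.69, a rise of 0.38 ± 0.05 (adjusted p = 1.5e-06). No array of 6 h overlapped those of 0 h in either medium.

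GCLC, GCLM and SRXN1 rose in both media and have a promoter window, so these sequences, 250 bases before the start of the gene, are shown. They are from RefSeq on GRCh38.p14, each on the strand of its gene. The table held windows for 6 of the 10 genes. A window runs from 250 bases before the start to 50 after it, and all of it was searched. Capitals mark the core of the antioxidant response element, the DNA element through which NRF2 acts: TGAC, any 3 bases, then GC, searched on both strands.
GCLM, chr1:93909431-93909680, minus strand: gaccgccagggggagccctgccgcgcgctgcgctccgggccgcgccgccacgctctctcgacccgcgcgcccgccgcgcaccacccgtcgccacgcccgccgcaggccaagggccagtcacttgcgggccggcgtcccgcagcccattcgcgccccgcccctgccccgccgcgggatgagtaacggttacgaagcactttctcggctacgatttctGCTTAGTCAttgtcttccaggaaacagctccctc
GCLC, chr6:53545102-53545351, minus strand: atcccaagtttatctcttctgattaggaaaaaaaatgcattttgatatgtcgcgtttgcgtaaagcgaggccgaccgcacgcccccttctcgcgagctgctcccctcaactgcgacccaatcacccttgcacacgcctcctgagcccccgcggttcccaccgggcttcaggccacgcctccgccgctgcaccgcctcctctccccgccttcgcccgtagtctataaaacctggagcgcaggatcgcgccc
SRXN1, chr20:653201-653450, minus strand: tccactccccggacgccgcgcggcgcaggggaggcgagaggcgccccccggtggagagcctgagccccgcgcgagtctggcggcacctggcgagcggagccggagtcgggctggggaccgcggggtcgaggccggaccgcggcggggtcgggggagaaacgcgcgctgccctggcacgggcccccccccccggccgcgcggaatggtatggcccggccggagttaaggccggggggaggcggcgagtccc

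The GCLM window held 1 match, at -34 to -26 from the start, on the strand opposite to the gene. The GCLC and SRXN1 windows held none, and neither did that of NQO1. That the letters are not in these windows says nothing of elements farther away. The core was found in 4 of the 7 windows of the 10 genes, which belong to 3 genes, and in 13.3% of the 35116 windows in the table. TXNRD1 has 2 windows, for 2 start sites. The first held 2 matches, of which the later lies at -8 to 1 and so takes in the first base after the start. The second window held 1, and the PGD window held 1. The stretches around them are as follows.
TXNRD1, chr12:104215660-104215779, plus strand: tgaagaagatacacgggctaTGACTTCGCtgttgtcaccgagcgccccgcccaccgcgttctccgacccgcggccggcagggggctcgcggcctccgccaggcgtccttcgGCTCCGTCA
TXNRD1, chr12:104286910-104286958, plus strand: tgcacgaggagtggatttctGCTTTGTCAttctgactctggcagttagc
PGD, chr1:10398843-10398891, plus strand: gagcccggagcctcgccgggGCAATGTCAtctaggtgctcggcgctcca
A match is a description of the letters, not a measured site.

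GSR, which returns oxidised glutathione to its reduced form, read 12.01, 12.02 and 12.03 at 0 h and 12.27, 12.29 and 12.32 at 6 h with serine. The rise was 0.27 ± 0.05 (limma adjusted p = 0.000346). Without serine it read 11.86, 11.87 and 11.90 and then 12.18, 12.27 and 12.28, a rise of 0.37 ± 0.05 (adjusted p = 3.15e-06). The groups did not overlap in either medium. NQO1 rose without serine by 0.22 ± 0.05 (adjusted p = 0.00116), from 13.73, 13.74 and 13.76 to 13.91, 13.92 and 14.05.

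HMOX1 with serine rose by 0.19 ± 0.07 (adjusted p = 0.0471), but this call was lost without any one of 5 of the 6 arrays, and another of its probe sets gave -0.03. Without serine its difference was 0.00 ± 0.07. TXNRD1 differed by 0.12 with serine and by -0.01 without, and neither was called. In the count of genes whose arrays did not overlap, 8 of the 10 were higher at 6 h with serine and 6 without, beside 11.7% and 14.2% of all genes.

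From 6 to 24 h in DMSO, SRXN1, HMOX1, GCLM and TXNRD1 fell in both media. With serine NQO1 also rose, so that 1 of the 10 rose and 4 fell, where 5.78% of all genes rose and 9.67% fell. Without serine GCLC fell as well, so that 5 fell and none rose, where 4.48% of all genes rose and 7.35% fell. With serine, 3 of the 10 were called with arrays centred on their medians and 1 with the fit limited to the 6 arrays. This comparison shares its 6 h arrays with the one from 0 to 6 h, so an array that is high at 6 h adds to both a rise and a fall. With arrays centred on their medians, the calls over all genes with serine turned from 1053 higher and 1763 lower to 1360 and 1349.

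HMOX1 read 10.43, 10.43 and 10.51 at 6 h and 9.89, 10.00 and 10.07 at 24 h with serine, a fall of 0.47 ± 0.07 (limma adjusted p = 1.52e-06). Without serine it went from 10.33, 10.36 and 10.38 to 9.67, 9.69 and 9.80, a fall of 0.63 ± 0.07 (adjusted p = 5.78e-09). The arrays of both times were apart in both media. At 24 h without serine, its DMSO level was the lowest of all 17 groups.

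SRXN1 at 24 h read 12.20, 12.34 and 12.35 with serine and 12.18, 12.28 and 12.36 without. It fell by 0.33 ± 0.05 (adjusted p = 1.01e-05) and 0.37 ± 0.05 (adjusted p = 2.12e-06), which left it near its 0 h values. GCLM fell by 0.22 ± 0.07 (adjusted p = 0.0306) with serine and by 0.39 ± 0.07 (adjusted p = 0.00013) without. GCLC fell by 0.36 ± 0.07 without serine (adjusted p = 0.000519), to 11.06, 11.11 and 11.16. With serine GCLC read 11.20, 11.21 and 11.23 at 24 h, which was not called against 6 h.

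GSR was not called between 6 and 24 h. It read 12.20, 12.23 and 12.33 at 24 h with serine and 12.19, 12.28 and 12.28 without, and its differences from 6 h were -0.04 and 0.01. NQO1 with serine read 13.84, 13.95 and 13.95 at 6 h and 14.04, 14.07 and 14.08 at 24 h, a rise of 0.15 ± 0.05 (adjusted p = 0.0309). TXNRD1 fell by 0.16 ± 0.05 with serine (adjusted p = 0.0394) and by 0.17 ± 0.05 without (adjusted p = 0.0304), and the second call was lost without any one of 5 of the 6 arrays. One other probe set of TXNRD1 gave 0.05 for the second (adjusted p = 0.893 over all probe sets). With serine, 3 of the 10 were called without array 60 or 61 of the 6 h group or array 97 of the 24 h group, and 2 without array 62 or 96.

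The times lie in separate numbering blocks of the titles, so time and block cannot be told apart. Within a time, each group is a run of consecutive numbers, so medium and agent cannot be told apart from this order either. The 3′ to 5′ gap of ACTB was 1.22, 1.19 and 1.21 at 0, 6 and 24 h in DMSO with serine, and 1.14, 1.32 and 1.17 without. That of GAPDH was -0.16, -0.16 and -0.12 with serine, and -0.17, -0.16 and -0.12 without. In single arrays without serine, the ACTB gap at 6 h (1.28 to 1.37) lay above that at 0 h (1.04 to 1.21) and 24 h (1.15 to 1.19). With serine the arrays of these times overlapped in it (1.08 to 1.38, 1.00 to 1.29 and 1.17 to 1.23). LYZ rose by 1.17 ± 0.23 from 0 to 6 h and by 0.95 ± 0.23 from 6 to 24 h without serine, and by 1.05 ± 0.23 from 6 to 24 h with serine. CD14 fell by 1.10 ± 0.21 from 0 to 6 h with serine. CDH1 fell by 0.58 ± 0.07 from 0 to 6 h and rose by 0.45 ± 0.07 from 6 to 24 h with serine, and fell by 0.32 ± 0.07 from 0 to 6 h without. EPCAM rose by 0.43 ± 0.12 and KRT19 fell by 0.21 ± 0.06 from 0 to 6 h without serine. KRT19 fell by 0.18 ± 0.06 from 6 to 24 h with serine. KRT7 fell by 0.32 ± 0.05 from 6 to 24 h with serine, and by 0.15 ± 0.05 from 0 to 6 h and 0.25 ± 0.05 from 6 to 24 h without. The part of these marker shifts and of the ACTB gap in the course of the 10 genes was not tested.

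**Figure D2:**
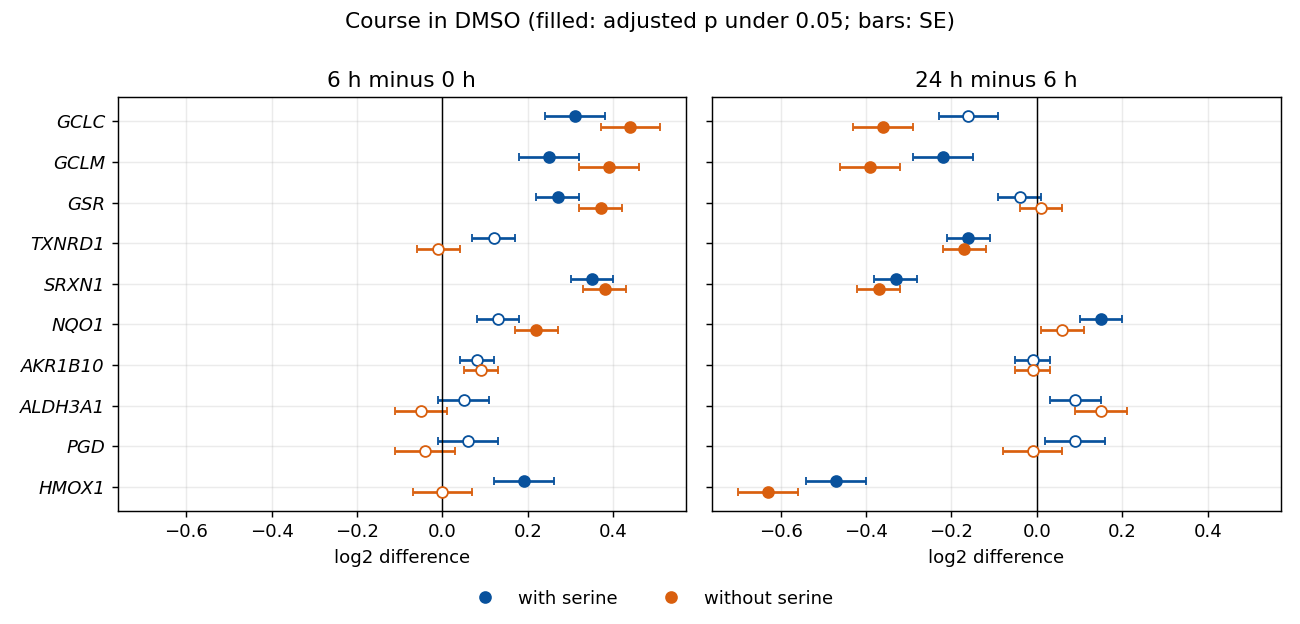
Log2 differences of the 10 genes in DMSO between 6 and 0 h and between 24 and 6 h, with SE bars, in medium with and without serine; filled points passed an adjusted p of 0.05. SRXN1 rises by 0.35 and 0.38 and then falls by 0.33 and 0.37, whereas GSR rises by 0.27 and 0.37 and then differs by -0.04 and 0.01.

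The main comparison of the study set compound 16 against DMSO at the same time and in the same medium. Most of the 10 genes were not called. Without serine at 24 h, HMOX1, GCLM and SRXN1 were higher under the compound and none of the 10 was lower, where 2.98% of all genes were higher and 4.1% lower. The median of the 10 differences was 0.00, as it was for all genes. In the other 7 combinations of medium and time none of the 10 was called.

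HMOX1 without serine at 24 h read 10.00, 10.08 and 10.10 under the compound and 9.67, 9.69 and 9.80 in DMSO. All compound arrays were higher, by 0.34 ± 0.07 or 1.26-fold (limma adjusted p = 0.00043). Its other 2 probe sets differed by 0.78 ± 0.12 (adjusted p = 1.09e-05, over all probe sets) and 0.40 ± 0.07 (0.000158). The call held with each array left out in turn. The HMOX1 mean under the compound, 10.06, was near those with serine at 24 h, 10.07 under the compound and 9.99 in DMSO. The DMSO mean without serine, 9.72, was the one that stood apart.

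GCLM read 12.07, 12.13 and 12.18 under the compound and 11.82, 11.86 and 11.94 in DMSO, a difference of 0.25 ± 0.07 (adjusted p = 0.0187). SRXN1 read 12.42, 12.43 and 12.49 under the compound and 12.18, 12.28 and 12.36 in DMSO, a difference of 0.17 ± 0.05 (adjusted p = 0.0313). For both, too, no compound array overlapped DMSO. These 2 calls were less firm: GCLM's was lost without any one of 4 of the 6 arrays (adjusted p from 0.0562 to 0.0957), and SRXN1's without any one of 5 (0.0515 to 0.219). Only HMOX1 of the 10 was called without array 99 or 101 of the compound group, or without either of the DMSO arrays that read 11.82 and 11.86 for GCLM. With the fit limited to these 6 arrays, none was called.

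GCLC was higher by 0.19 ± 0.07 (adjusted p = 0.126), with 11.26, 11.30 and 11.33 under the compound and 11.06, 11.11 and 11.16 in DMSO. Its arrays did not overlap, but it did not pass the test over all genes. The remaining 6 genes had differences from -0.10 (ALDH3A1) to 0.01 (GSR). ALDH3A1 was not called, but its arrays were apart in the other direction. They read 13.48, 13.51 and 13.51 under the compound and 13.58, 13.61 and 13.62 in DMSO. Arrays were thus apart upward for 4 of the 10 and downward for 1. The share of all genes with arrays apart is not given for this comparison, so no result is read from these counts. The DMSO arrays of this comparison are also those of the fall from 6 to 24 h. Markers also differed here: KRT7 was higher by 0.36 ± 0.05 and KRT19 lower by 0.30 ± 0.06, KRT8 by 0.19 ± 0.06, CD14 by 0.78 ± 0.21 and LYZ by 0.75 ± 0.23. PTPRC and CD3E were not called, nor was any of the fibroblast and endothelial markers. The part of these shifts in the 3 calls was not tested. Marker shifts were not particular to this comparison: KRT19 was also lower under the compound without serine at 6 h, by 0.41 ± 0.06. With serine at 24 h it was lower by 0.23 ± 0.06. At 6 h without serine, HMOX1 read 10.37, 10.42 and 10.49 under the compound, and SRXN1 read 12.74, 12.81 and 12.82. For both genes the level under the compound was thus lower at 24 h than at 6 h, as it was in DMSO. That fall under the compound was not tested.

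With serine at 24 h, limma called none of the 10, and none had an unadjusted p under 0.05, where 1.37% of all genes were called and 11.7% had such a p. Differences ran from -0.08 (TXNRD1) to 0.09 (HMOX1), and their 95% confidence intervals from -0.19 to 0.22. HMOX1 read 9.99, 10.05 and 10.18 under the compound and 9.89, 10.00 and 10.07 in DMSO, which overlap. Without serine at 6 h limma called none, but 3 of the 10 had an unadjusted p under 0.05, beside 13% of all genes, of which 2.72% were called. These included GCLC at 0.16 ± 0.07 (adjusted p = 0.302) and SRXN1 at 0.14 ± 0.05 (adjusted p = 0.156). With serine at 6 h limma called none, and 3 had an unadjusted p under 0.05, beside 6.05% of all genes and 0 called. HMOX1 differed by 0.15 there and GSR by -0.10. ALDH3A1, with the smallest p of the 10 there, had means of 13.45 under the compound and 13.31 in DMSO (limma adjusted p = 0.802). Without serine at 6 h its means were 13.58 and 13.46, also not called.

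At 0 and 1.5 h limma called none of the 10 in either medium. Unadjusted p-values under 0.05 numbered 1 of 10 without serine at 1.5 h and 0 in the other 3 comparisons. At 1.5 h without serine the differences ran from -0.14 (GCLM) to 0.05 (PGD), and 0.0823% of all genes were called, while 4.43% had an unadjusted p under 0.05. In the other 3 no gene at all was called, and 5.65% (with serine) and 7.23% (without) of all genes at 0 h had an unadjusted p under 0.05, and 3.36% with serine at 1.5 h.

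**Figure D3:**
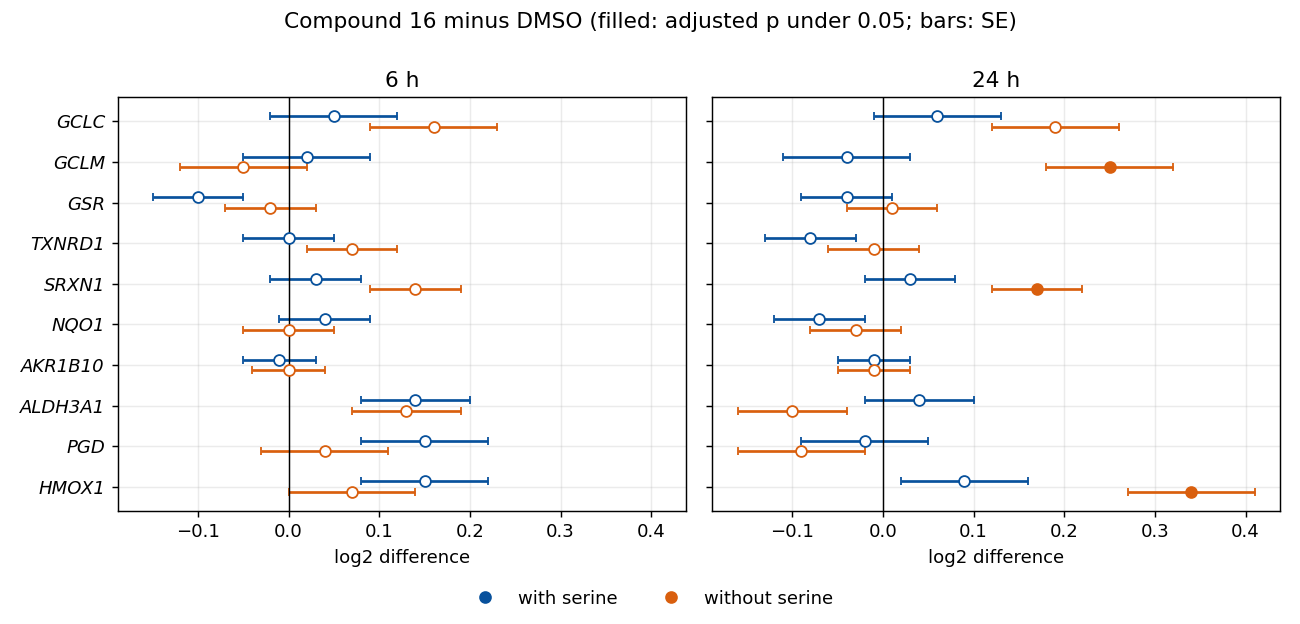
Log2 differences of compound 16 minus DMSO for the 10 genes at 6 and 24 h, with SE bars, in medium with and without serine; filled points passed an adjusted p of 0.05. The filled points are HMOX1 (0.34), GCLM (0.25) and SRXN1 (0.17) at 24 h without serine.

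Whether the effect of the compound depended on serine was tested as the difference between both media. Limma called none of the 10 at any time, where 1.28% of all genes were called at 24 h, 0.9% at 6 h, 0.0165% at 1.5 h and 0 at 0 h. Unadjusted p-values under 0.05 were found for 2 of 10 at 24 h, beside 11% of all genes. They were found for none of the 10 at 0, 1.5 and 6 h, beside 5.87%, 4.25% and 9.42% of all genes. At 24 h the effect without serine exceeded that with serine by 0.30 ± 0.10 for GCLM (adjusted p = 0.173), with a 95% interval of 0.09 to 0.50. It did so by 0.25 ± 0.09 for HMOX1 (adjusted p = 0.238; interval 0.06 to 0.44) and by 0.15 ± 0.07 for SRXN1 (adjusted p = 0.461). With the brightest probe sets, a dependence on serine was therefore not shown for these genes at 24 h. For HMOX1 this outcome depended on the probe set rule: with the mean of its probe sets it was called, at 0.33 (adjusted p = 0.0207).

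Lack of serine by itself was compared in DMSO at each time, and these comparisons share their arrays with those above. At 0 h, after 24 h in the new medium, ALDH3A1 was higher without serine and was the only one of the 10 called, where 3% of all genes were higher and 2.92% lower. It read 13.48, 13.52 and 13.53 without serine and 13.23, 13.25 and 13.30 with it, a difference of 0.25 ± 0.06 (limma adjusted p = 0.00386). The groups did not overlap. The call held with each array left out but not with the fit limited to the 6 arrays (adjusted p = 0.177).

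At 1.5, 6 and 24 h limma called none of the 10, where 1.98%, 3.19% and 0.159% of all genes were called. Unadjusted p-values under 0.05 numbered 0, 1 and 2, beside 11.2%, 13.7% and 7.82% of all genes. The ALDH3A1 difference was 0.10 at 1.5 h, 0.15 at 6 h and 0.21 at 24 h, with adjusted p of 0.613, 0.159 and 0.136. At 24 h it read 13.58, 13.61 and 13.62 without serine and 13.31, 13.39 and 13.49 with it. HMOX1 was lower without serine at 24 h by 0.27 ± 0.07 (adjusted p = 0.0879), with arrays apart at 9.67, 9.69 and 9.80 against 9.89, 10.00 and 10.07. With the mean of its probe sets it was called there, at -0.42 (adjusted p = 2.82e-05). Of the markers, LYZ was higher without serine at 6 h by 1.08 ± 0.23 and EPCAM by 0.45 ± 0.12. The part of these marker shifts was not tested.

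Several of these genes have more than 1 probe set, and 22 probe sets named one of them alone. SRXN1 and ALDH3A1 have only 1. Adjusted p-values of other probe sets are over all 49386 probe sets. The probe sets of TXNRD1 differed in the call. Its brightest probe set, with a mean of 13.76, differed by 0.12 and -0.01 between 0 and 6 h with and without serine. A second, with a mean of 9.55, rose by 0.52 ± 0.11 (adjusted p = 0.00105) and 0.40 ± 0.11 (0.00698). A further one, with a mean of 9.07, rose by 0.50 ± 0.12 (0.00524) and 0.37 ± 0.12 (0.0303). Which transcripts each probe set reads is not recorded in the annotation used.

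For GCLC the other probe sets gave 0.64, 0.26 and 0.88 between 0 and 6 h without serine, beside 0.44 for the one used, and the 0.26 was not called (adjusted p = 0.115). For GCLM the second gave 0.44 beside 0.39. For GSR the second, with a mean of 9.48, gave 0.11 ± 0.08 (adjusted p = 0.397), which was not called, beside 0.37. For HMOX1 the other probe sets gave -0.27 (adjusted p = 0.122) and -0.24 (0.0131), beside 0.00. A second probe set of AKR1B10 rose by 0.14 with serine (adjusted p = 0.0183) and 0.12 without (0.0317), where the one used gave 0.08 and 0.09, not called. The levels of AKR1B10 can include its near-identical relative AKR1B15, whose name shares 2 further probe sets with it that were left out.

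**Figure D4:**
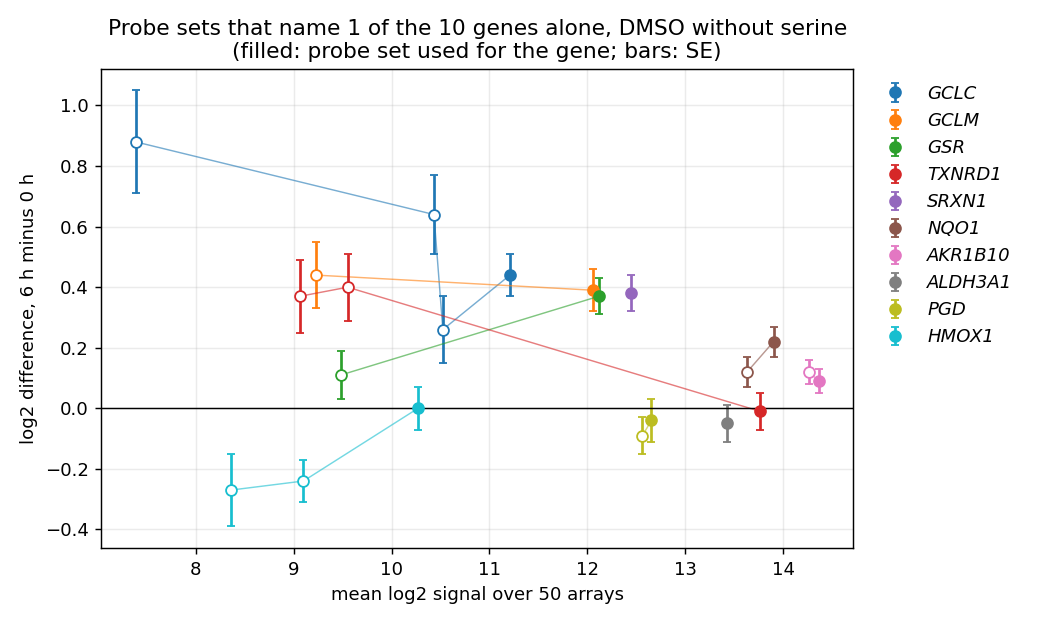
Log2 difference between 6 and 0 h in DMSO without serine (vertical) against the mean log2 signal over the 50 arrays (horizontal) for every probe set that names 1 of the 10 genes alone, with SE bars; colours and thin lines join the probe sets of a gene, and filled points are the ones used. The dimmer probe sets of TXNRD1 lie at 0.37 and 0.40, while its brightest lies at -0.01.

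Of 13 measured regulators of NRF2, NFE2L2 itself rose from 0 to 6 h in DMSO. The rise was 0.33 ± 0.07 with serine (limma adjusted p = 0.00139) and 0.46 ± 0.07 without (adjusted p = 1.04e-05). It was lower after the change to medium without serine, by 0.28 ± 0.07 (adjusted p = 0.00257), and differed by -0.17 with serine (adjusted p = 0.0857). From 6 to 24 h it differed by -0.02 and -0.05, and it was not called in any compound comparison, where it ran from -0.04 to 0.15. KEAP1 was not called in any of the 22 comparisons, and its group means lay between 8.85 and 9.14. BACH1, a repressor at the same DNA elements, rose from 6 to 24 h with serine by 0.30 ± 0.09 (adjusted p = 0.0117). Messenger RNA levels do not measure the amount or activity of NRF2 protein.

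NFE2L1, a factor related to NRF2, was higher under the compound without serine by 0.35 ± 0.06 at 6 h (adjusted p = 0.000135) and 0.24 ± 0.06 at 24 h (adjusted p = 0.00699). SQSTM1, which encodes the KEAP1-binding autophagy receptor p62, was higher there at 24 h by 0.18 ± 0.05 (adjusted p = 0.0253). SQSTM1 also rose from 0 to 6 h in DMSO, by 0.32 with serine and 0.24 without. MAFF, a small MAF partner, fell by 1.96 ± 0.17 with the change to medium with serine and by 1.9 ± 0.17 without. CUL3, the scaffold of the ubiquitin ligase that KEAP1 serves, fell by 0.23 and 0.41 there.

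A further 28 measured NRF2 targets gave a wider view. With the change of medium, 11 rose and 1 fell with serine, beside 12.3% and 9.48% of all genes. Without serine 13 rose and 1 fell, beside 16% and 12.6%. Their median difference was 0.11 and 0.13, beside 0.01 for all genes. ABCC3, an efflux pump, rose by 0.64 ± 0.05 and 0.75 ± 0.05, and GPX2, a glutathione peroxidase, rose by 0.43 ± 0.04 and 0.38 ± 0.04. IDH1, an NADPH-yielding isocitrate dehydrogenase, rose by 0.66 ± 0.06 with serine, and AKR1C1, an aldo-keto reductase, by 0.66 ± 0.08 without. AKR1C1 has close relatives in its family, so its probe sets may read more than 1 gene.

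From 0 to 6 h in DMSO, 6 of the 28 rose and 1 fell with serine, beside 4.67% and 9.62% of all genes. Without serine 8 rose and 1 fell, beside 8.16% and 14.3%. FECH, ferrochelatase, which makes heme, rose by 0.44 ± 0.06 with serine and 0.54 ± 0.06 without, and UGDH, which makes UDP-glucuronate, by 0.26 and 0.48. From 6 to 24 h, 4 rose and 5 fell in each medium, beside 5.78% and 9.67% of all genes with serine and 4.48% and 7.35% without. FECH fell by 0.51 ± 0.06 and 0.49 ± 0.06, while GPX2 rose by 0.18 with serine.

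Under compound 16 without serine at 24 h, 5 of the 28 were higher and 1 was lower, beside 2.98% and 4.1% of all genes. SLC7A11, the cystine carrier that feeds glutathione synthesis, was higher by 0.27 ± 0.06 (limma adjusted p = 0.00223), and IDH1 by 0.29 ± 0.06 (0.00073). CBR3, a carbonyl reductase, was lower by 0.48 ± 0.09 (0.000303). At 6 h without serine SLC7A11 was the only one of the 28 called, at 0.45 ± 0.06 (2.58e-06). It was also the only one called with serine at 24 h, at 0.23 ± 0.06 (0.0408). In the 10 genes described first, the corresponding counts were 3, 0 and 0.

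Finally, the profiles of the 10 over the 17 group means were set beside each other as a description. The groups share arrays' processing and time blocks, and no p is given. Of 45 pairs, 34 had a positive Pearson r and 11 a negative one, with a median of 0.37. NQO1 and GSR were most alike (r = 0.89), followed by GSR with AKR1B10 (0.85), GCLM with SRXN1 (0.82) and NQO1 with AKR1B10 (0.81). After these came GCLC with GCLM (0.77) and GCLC with SRXN1 (0.74). NQO1 and HMOX1 were least alike (r = -0.55), and HMOX1 was most like TXNRD1 (0.71) among the 10.

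Among 3375 genes outside the 10 whose group means had an SD of at least 0.2, those most like each gene were as follows, in the same measure. NQO1 was most like PXMP2 (0.96) and CRCP (0.94), and GSR most like TWSG1 (0.94) and FBXO21 (0.93). GCLC was most like MT1F (0.91), a metallothionein gene, and KCTD15 (0.90). GCLM was most like ZC3HAV1L (0.90) and NANOS1 (0.86), and SRXN1 most like ALG13 (0.88) and GREM1 (0.87). HMOX1 was most like GRWD1 (0.91) and POLR3G (0.89), and TXNRD1 most like TRIML2 (0.91) and DGKG (0.85). AKR1B10 was most like FBXO21 (0.92) and PPCS (0.90), although its own group means barely varied. The closest for ALDH3A1 were CEMIP (0.82) and FSTL4 (0.79), and for PGD they were SPP1 and ADGRG1 (0.80 each).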

How the data were processed

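The authors deposited 1 table of log2 signals for 49386 probe sets on 50 arrays of total RNA, extracted with Trizol per the labels. Per the submitters' processing notes the tools were RMA and limma, of versions not given in the sources used here. RMA summarises probes and normalises between arrays, so a shift shared by all genes is removed and changes of dim probe sets are compressed. All 50 columns were matched to a sample, and 0 were left without one.

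Probe sets were named from the platform annotation, with 56 symbols updated through a RefSeq table. Of them 45317 name 1 symbol, 1269 with several symbols were left out of the gene tests, and 93 are controls. The brightest probe set by mean stood for each of 18227 genes. The 17 group means were fitted together in limma 3.58.1 under R 4.3.3, with 33 residual and 3.69 prior degrees of freedom. It gave 22 comparisons and an F test, with Benjamini-Hochberg adjusted p-values over all genes, called under 0.05. The median SE was 0.122 to 0.183, a precision set by the number of arrays. No label ties replicate arrays to separate cultures, so a p-value reflects only how far these arrays scatter, which may be technical. The fit was tested on simulated data.

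The 10 genes and the other lists were chosen with earlier results of these data known. The text names the 10, 4 regulators (NFE2L2, KEAP1, BACH1 and NFE2L1), up to 3 called genes with the smallest p per list and comparison, and the 2 genes most like each of the 10. Other normalizations, probe set rules, sample sets and a filter that left out the dimmest 40% of genes were tried.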

Additional observations from a re-analysis of the deposited data

Results flagged for a closer look

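A few genes outside the 10, from the lists of NRF2 regulators and further NRF2 targets, had an effect of compound 16 that differed between the media in limma's test of that difference. SLC7A11, the cystine carrier, differed at 6 h by 0.47 ± 0.09 (adjusted p = 0.00121), with an effect of 0.45 without serine and -0.02 with it. CBR3, a carbonyl reductase, differed at 24 h by -0.49 ± 0.13 (adjusted p = 0.0406), with effects of -0.48 and 0.02. PALB2, which encodes a DNA repair protein that binds KEAP1, differed at 24 h by -0.54 ± 0.13 (adjusted p = 0.0173), with effects of -0.28 and 0.27, neither of which was called by itself.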

How the results depend on the processing

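Results were recomputed with arrays centred on their medians, after quantile normalization, without the dimmest genes, with the mean of a gene's probe sets, with only the arrays of a comparison and with each array left out. Other probe sets were tried after seeing the data. Fits limited to a comparison's own arrays have few degrees of freedom, and called 0 of the 10 (5 in the full fit) from 0 to 6 h with serine, 1 (5) from 6 to 24 h with serine, 1 (4) for the change of medium with serine, 0 (3) for the compound without serine at 24 h and 0 (1) for the lack of serine at 0 h. Centring gave 8 calls in place of 5 from 0 to 6 h with serine and 3 in place of 5 from 6 to 24 h with serine. The mean of probe sets gave 8 in place of 5 from 0 to 6 h without serine, and 1 in place of 0 at 24 h both for the lack of serine and for the dependence of the compound effect on serine. Leaving out dim genes gave 1 in place of 0 for the lack of serine at 24 h. The cause of these shifts was not tested. With each array left out, counts ran from 2 to 3 for the change of medium with serine, 2 to 4 from 6 to 24 h and 4 to 5 from 0 to 6 h with serine, 4 to 5 from 6 to 24 h without serine, and 1 to 3 for the compound without serine at 24 h. The change of medium gave 2 calls without array 2 or 3 of the earlier group or array 14 of the 0 h group. With other probe sets, TXNRD1 reversed to 0.05 (limma adjusted p = 0.893) from 6 to 24 h without serine, and HMOX1 to -0.03 (0.928) from 0 to 6 h with serine. No paired analysis was possible because no groups share replicate numbers. Signal over background was not analysed here.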

Other observations

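The glutathione and thioredoxin enzymes that are not on the NRF2 lists, 22 of them measured, changed in both directions. With the change of medium, 6 rose and 5 fell with serine, beside 12.3% and 9.48% of all genes. Without serine 4 rose and 5 fell, beside 16% and 12.6%. GSTK1, a mitochondrial and peroxisomal glutathione transferase, rose by 0.34 ± 0.05 and 0.46 ± 0.05. GLRX2, a glutaredoxin, fell by 0.37 ± 0.06 and 0.43 ± 0.06. GPX1, a glutathione peroxidase, fell by 0.52 ± 0.07 with serine, and TXNRD2, mitochondrial thioredoxin reductase, fell by 0.74 ± 0.12 without.

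From 0 to 6 h in DMSO, while GCLC and GCLM rose, GSS, the next enzyme of glutathione synthesis, fell by 0.31 ± 0.07 with serine (limma adjusted p = 0.00222) and by 0.41 ± 0.07 without (5.62e-05). Of the 22, 1 rose and 2 fell with serine, beside 4.67% and 9.62% of all genes, and 2 rose and 5 fell without, beside 8.16% and 14.3%. Under compound 16 without serine at 24 h, 1 rose and 2 fell, beside 2.98% and 4.1%. GPX1 was higher by 0.25 ± 0.07, while GPX3, a secreted peroxidase, was lower by 0.61 ± 0.15 and GLRX5, which serves iron-sulfur cluster assembly, by 0.18 ± 0.05.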
